A study of Mus musculus with 4 samples.

Results

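The comparison is between migratory dendritic cells (DCs) with and without the BFP reporter of OX40L, taken after the ears had been treated with MC903. The mice carried 1 Tnfsf4 KI allele (Tnfsf4KI/+), in which blue fluorescent protein (BFP) reports the gene of OX40L, and both populations share this genotype. MC903, also known as calcipotriol, is an analogue of vitamin D under which keratinocytes make TSLP. It was put on the ears on days 0, 2 and 4, and the ear-draining lymph nodes were taken on day 5. Cells sorted as B220-, CD11c intermediate and MHC class II high were split by BFP into 5000 BFP+ and 7000 BFP- cells, stained with antibodies to CD45 and MHC class I that carry a hashtag oligonucleotide, and run together in 1 droplet capture. A second capture held the same sort from untreated ears and is used here only for values set beside the MC903 ones. There was 1 pool of cells per population, so the differences have no replicate check, no test was run, and the 95% intervals given below are exact and cover counting error only. The sources used here do not give the age or number of the mice in a pool.

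The capture held 6316 of the 15836 barcodes of the series, and 4111 of them were used. In turn, 6007 barcodes had at least 500 genes, 5636 of these had at most 10% mitochondrial UMIs (unique molecular identifiers, 1 per captured transcript), 5406 had at least 1 UMI of Fscn1 or Ccr7, which mark DCs that have matured and migrated, and 4207 of these had no UMI of the T cell genes Cd3e, Cd3d and Cd3g or the B cell genes Cd79a and Cd79b. Each of the 4207 had at least 10 counts of its 2 hashtags. A barcode was BFP+ when Hashtag3 gave at least 80% of those counts and BFP- when Hashtag4 did, which gave 1280 BFP+ and 2831 BFP- barcodes and left out 96 mixed ones. The tag sequences that carry these labels differ at 12 of their 15 positions and are shown because every assignment rests on them.
Hashtag3: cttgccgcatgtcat
Hashtag4: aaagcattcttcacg

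The labels were well separated for most barcodes. BFP+ barcodes held a median of 706 counts of their own hashtag and 9 of the other, and BFP- barcodes 675 and 3. Just inside the threshold, 20 BFP+ and 14 BFP- barcodes had 80 to 90% of counts from their own hashtag. Just outside it, 11 barcodes on the BFP+ side and 4 on the BFP- side had 70 to under 80%. Depth was alike in both populations, with medians of 10018 UMIs in BFP+ and 9380 UMIs in BFP- barcodes and totals of 13690221 and 28241405 UMIs. Of the members, 31 had a single Fscn1 or Ccr7 UMI, and 20 have a barcode sequence that also occurs in the untreated capture, which shares 23 barcodes in all. Levels are given in CPM (a gene's UMIs scaled to a fixed total, as counts per 1e6 UMIs of the population). The 10 genes of mature migratory DCs summed to 14696 CPM in BFP+ and 15661 CPM in BFP- barcodes. Fscn1 (2245 and 2572 CPM) and Ccr7 (2701 and 2684 CPM) are part of these sums, and the rule selected the barcodes by them. All 10 genes passed the level for testing. Among them, Zmynd15 was at 150 CPM in BFP+ and 456 CPM in BFP- barcodes.

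As background, OX40L is a membrane ligand of the TNF family that DCs show to T cells through the receptor OX40, and it is known for favouring type 2 helper T cell responses downstream of TSLP in skin. Migratory DCs leave the skin through lymph vessels, mature on the way and present antigen on MHC class II in the draining node. They comprise Langerhans cells of the epidermis and the dermal cDC1 and cDC2 lineages. MHC class II genes are switched on together by the transactivator CIITA, their products are loaded with peptide with the help of H2-DM, and H2-O restrains H2-DM.

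The sorted reporter and its gene were looked at first, as a check of the labels. Tnfsf4 (ENSMUSG00000026700, GRCm38 chromosome 1, 161395409 to 161418410) was at 33.2 CPM in BFP+ DCs (454 UMIs) and 4.43 CPM in BFP- DCs (125 UMIs), a log2 ratio of 2.91 (interval 2.62 to 3.20). The BFP transcript was at 109 CPM (1498 UMIs) and 10.3 CPM (291 UMIs), a log2 ratio of 3.41 (3.23 to 3.59). Because the cells were sorted on BFP, these differences check the sort and are not results about the cells. Only 36.95% of BFP+ barcodes held a UMI of either transcript, against 7.35% of BFP- barcodes. Thinned to 2000 UMIs per barcode (14 BFP+ and 37 BFP- shallower barcodes left out), 4.42% of BFP+ barcodes (exact interval 3.36 to 5.71) and 0.68% of BFP- barcodes (0.41 to 1.06) had a Tnfsf4 UMI, and without thinning 16.4% and 3.21%. Of 327 thinned B cell-like barcodes of the same capture (3 or more Cd79 UMIs and no Fscn1 UMI, median 3181 UMIs before thinning) none had a Tnfsf4 UMI, and the exact interval allows a share of up to 1.12%. Of 216 thinned T cell-like barcodes (median 4647 UMIs) none had one either, which allows up to 1.69%. The BFP- share lies under both limits, so the thinned shares do not set BFP- DCs apart from lymphocytes at this depth. By CPM, a count of 3 UMIs, where 0 were seen, would have given 2.21 in the B cell-like barcodes. The BFP- DCs lay above that level at 4.43 (3.68 to 5.27).

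The level of Tnfsf4 differed between clusters in both populations. The barcodes were clustered without Tnfsf4 and BFP among the clustering genes, and 8 of the 13 clusters had at least 30 barcodes of each population. In BFP+ barcodes Tnfsf4 was at 128 CPM in cluster 7, 89.6 in cluster 1, 28.2 in cluster 9, 25.2 in cluster 4, 15.2 in cluster 2, 9.98 in cluster 0, 5.91 in cluster 6 and 4.42 in cluster 10. In BFP- barcodes it was at 24.7 CPM in cluster 7 and 18.9 CPM in cluster 1, and at 6.22 CPM or less in the other 6 clusters. The levels in BFP- barcodes of clusters 7 and 1 thus exceeded those in BFP+ barcodes of clusters 6 and 10. Inside each cluster the level was higher in BFP+ barcodes, with log2 ratios of 1.04 to 2.61, and the interval included 0 in clusters 0 and 10, which had 11 and 9 Tnfsf4 UMIs in all. BFP followed the same order of the 2 leading clusters, at 349 CPM in cluster 7 and 229 CPM in cluster 1 of BFP+ barcodes. Its log2 ratios inside the 8 clusters ran from 1.66 to 3.70.

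**Figure D1:**
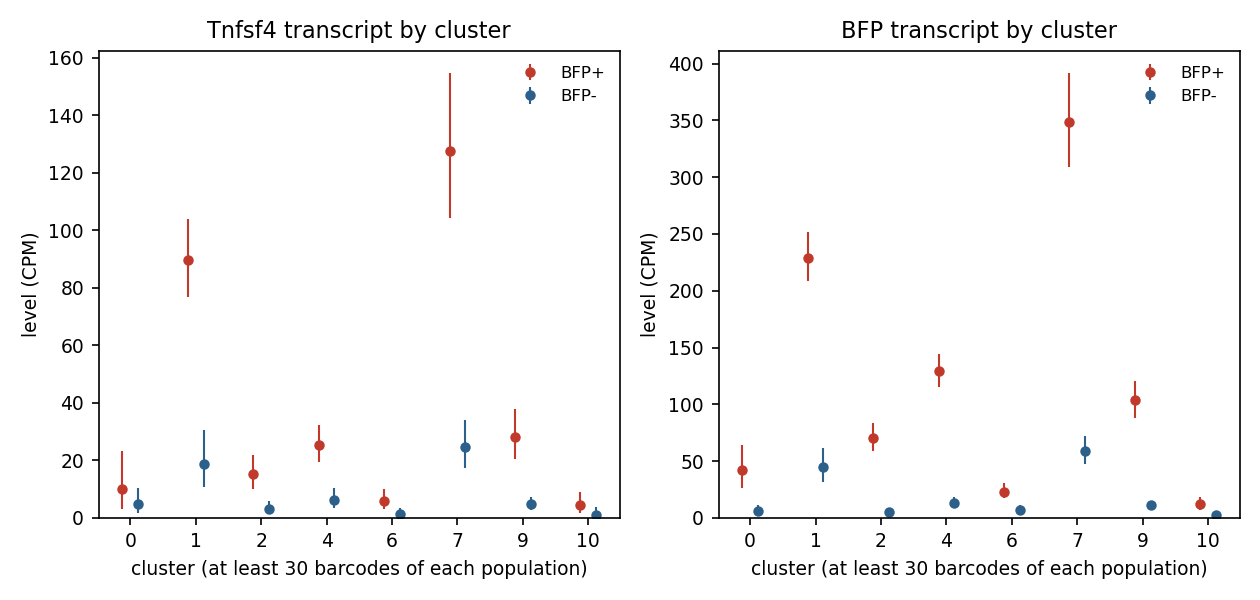
Level of Tnfsf4 (left) and BFP (right) transcript in CPM, by cluster, for BFP+ (red) and BFP- (blue) barcodes; bars are exact 95% Poisson intervals of the UMI count. BFP+ barcodes of clusters 7 and 1 hold the highest levels, and BFP+ lies above BFP- in each of the 8 clusters drawn.

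Across genes, few differed by 1.5-fold. A gene was tested where it reached 20 CPM in the higher population, and it was called where the ratio was at least 1.5-fold. Of 4799 tested genes, 68 were called higher in BFP+ DCs (1.42%) and 87 lower (1.81%), and the median log2 ratio of all tested genes was -0.02. At 2-fold or more, 19 were higher and 34 lower. Compared within the 8 clusters that held at least 30 barcodes of each population (1204 BFP+ and 1711 BFP- barcodes), 17 of 4723 genes were higher (0.36%) and 15 lower (0.318%). Of the genes called over all barcodes, 14 of the 68 higher and 11 of the 87 lower ones were called again within clusters. Clusters 3 and 12 took part in the ratio over all barcodes and not in the ratio within clusters: they held 2 and 14 BFP+ barcodes against 519 and 388 BFP- barcodes. Without those 2 clusters, 38 genes were higher and 39 lower, of which 31 and 29 were among those called with them.

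**Figure D2:**
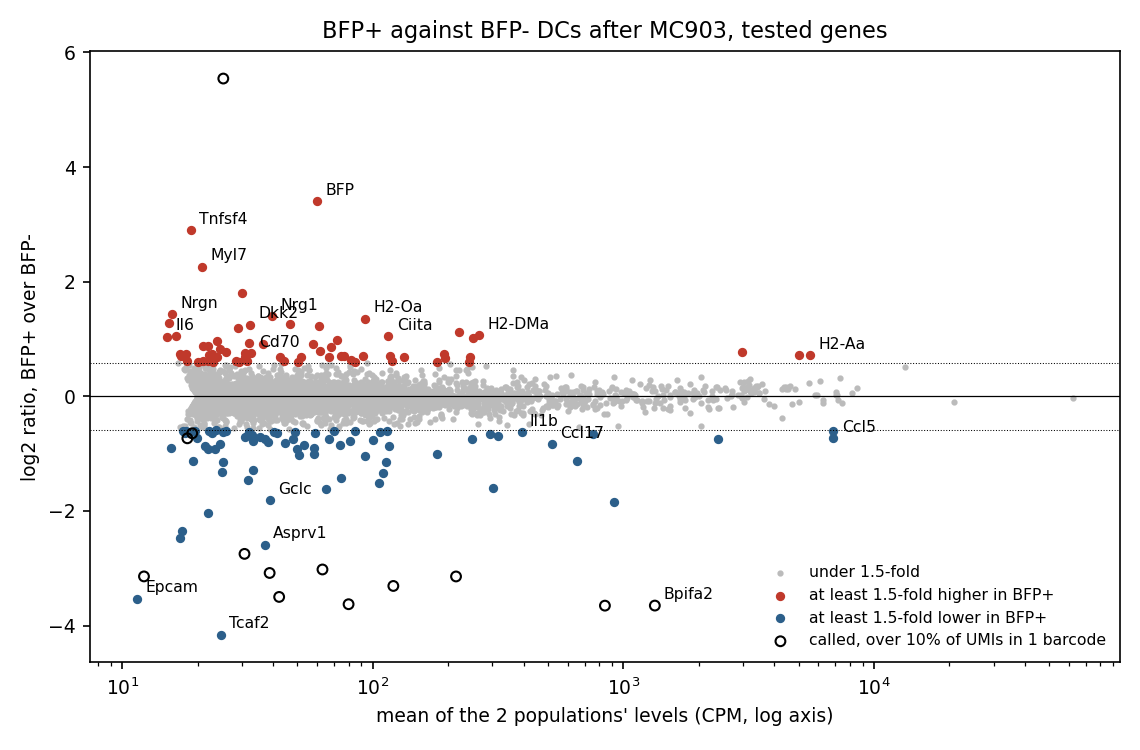
Log2 ratio of BFP+ over BFP- against the mean level of the 2 populations in CPM (log axis) for the 4799 tested genes; dotted lines mark 1.5-fold. Red points are the 68 higher and blue points the 87 lower genes, except that open circles mark the called genes with over 10% of their UMIs in 1 barcode. Most of the points below -2.5, such as Bpifa2, are open circles, and Tcaf2, Epcam and Asprv1 are not.

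Of the 33 gene lists, MHC class II presentation had the most genes called higher in BFP+ DCs. Of its 11 tested genes (17 listed), 8 were called higher, against 1.42% of all tested genes, and 0 lower, all 11 ratios were above 0, and their median log2 ratio was 0.72. The surface protein was a gate of the sort for both populations. H2-Aa, the alpha chain of I-A, was at 6915 CPM in BFP+ and 4194 CPM in BFP- DCs (log2 ratio 0.72, 0.71 to 0.73). H2-Ab1, its beta chain, was at 3757 and 2204 CPM (0.77, 0.75 to 0.79), and H2-Eb1, the beta chain of I-E, at 6261 and 3789 CPM (0.72, 0.71 to 0.74). All of these antigen-presenting chains were abundant in both populations, with an H2-Aa UMI in 98.3% of BFP+ and 92.2% of BFP- barcodes. T cell-like barcodes, which should lack it, held H2-Aa at 98.6 CPM.

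The regulator and the peptide editors differed by more than the chains themselves. Ciita (ENSMUSG00000022504, chromosome 16, 10480059 to 10528418) was at 156 CPM in BFP+ and 75.1 CPM in BFP- DCs (log2 ratio 1.05, 0.96 to 1.14). H2-Oa (chromosome 17, 34092340 to 34095234), a chain of H2-O, was at 134 and 52.3 CPM, a log2 ratio of 1.36 (1.26 to 1.46), the largest of the list. H2-DMb2 (34143307 to 34151555) was at 302 and 139 CPM (1.12, 1.05 to 1.18). H2-DMa (34119541 to 34139101), which encodes the other chain of H2-DM, was at 359 and 172 CPM (1.06, 1.01 to 1.12), and H2-DMb1 at 94.7 and 58.0 CPM (0.71). The ratios of H2-Oa, H2-DMb2, H2-DMa and Ciita thus lay above those of H2-Aa, H2-Ab1 and H2-Eb1, and that of H2-DMb1 beside them. H2-Eb2 did not follow these chains: it had the lowest ratio of the list, at 0.13, and was not called. Inside single clusters its ratio ran from -0.52 (-0.88 to -0.16) in cluster 1 to 0.70 (-0.22 to 1.58) in cluster 0. Cd74, the invariant chain that guards the peptide groove, was at 15634 and 10950 CPM and stayed under 1.5-fold (0.51, 0.51 to 0.52). Rfx5, part of the complex through which CIITA acts, was at 24.8 and 22.4 CPM (0.14, -0.05 to 0.34). The untreated capture gave log2 ratios of 1.49 for Ciita, 1.41 for H2-DMb2 and 0.85 for H2-DMa, and a median of 0.79 over the list.

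Promoters of this list are shown because most of its genes were higher together and the Y box is a known control element of MHC class II genes. The Y box is read here as the letters CTGATTGG, or the shorter GATTGG that lies within it, on either strand. In the 120 bases before the start site, RefSeq (GRCm38.p6) holds CTGATTGG in 2.84% of all 32851 promoters and GATTGG in 9.67%. RefSeq promoters matched 12 of the list's genes (15 promoters), and 4 of these held the longer motif and 8 the shorter. Of the genes called higher, H2-DMa was matched and held neither, and H2-Ab1 and Ciita were not matched. H2-Eb2, which was tested and not called, held the longer, and Rfx5, also not called, held the shorter. The 4 promoters shown were chosen among those that held a motif. H2-Aa, H2-Eb1 and H2-Oa held CTGATTGG, starting 51, 62 and 46 bases before the start site, and H2-DMb2 held GATTGG 91 bases before it. The promoter shown for H2-DMb2 lies inside the span given above for that gene (34143307 to 34151555). Its RefSeq start site thus differs from the start of that span. Capitals mark the first match in each promoter, and a match of letters is a description only. H2-Eb1 holds a further match of the shorter motif on the other strand (ccaatc), which is left in lower case.
H2-Aa, minus strand of chr17:34287824-34287943: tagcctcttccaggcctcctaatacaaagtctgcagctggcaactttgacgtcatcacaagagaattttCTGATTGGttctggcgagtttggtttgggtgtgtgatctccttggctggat
H2-Eb1, plus strand of chr17:34305747-34305866: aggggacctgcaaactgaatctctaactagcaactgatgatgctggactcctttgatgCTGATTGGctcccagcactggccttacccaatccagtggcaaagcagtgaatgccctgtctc
H2-Oa, plus strand of chr17:34092259-34092378: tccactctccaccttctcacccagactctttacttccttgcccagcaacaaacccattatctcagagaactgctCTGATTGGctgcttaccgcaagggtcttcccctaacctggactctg
H2-DMb2, plus strand of chr17:34145129-34145248: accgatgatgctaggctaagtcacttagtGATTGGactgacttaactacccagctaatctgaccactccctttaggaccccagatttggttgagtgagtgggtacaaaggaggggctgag

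The difference in MHC class II transcripts depended on the cluster. The list made up a median of 3.33% of a BFP+ barcode's UMIs (quartiles 1.70 and 4.64%) and 1.07% of a BFP- barcode's (0.34 and 3.31%). Barcodes under 1% made up 17.1% of BFP+ barcodes (exact interval 15.1 to 19.3) and 48.7% of BFP- barcodes (46.9 to 50.6), and 16.4% and 34.7% without clusters 3 and 12. In cluster 10 the medians were 3.38% in 193 BFP+ and 1.12% in 236 BFP- barcodes, and the log2 ratio of the list's summed UMIs was 0.89 (0.87 to 0.91). In clusters 1 and 4 the medians of both populations were high, at 4.13 and 4.26% in cluster 1 and 3.94 and 4.53% in cluster 4. There the summed UMIs were slightly lower in BFP+ barcodes, with log2 ratios of -0.11 (-0.13 to -0.09) and -0.09 (-0.10 to -0.08). Ciita did not follow the order of these sums. Its log2 ratio was above 0 in each of the 8 clusters, at 1.28 in cluster 10 (198 and 81.6 CPM), 1.10 (0.16 to 2.03) in cluster 0, where the list's sum was at -0.04, and 1.09 (0.82 to 1.36) in cluster 9, against 0.22 (-0.05 to 0.50) in cluster 1, 0.22 (0.05 to 0.39) in cluster 4 and 0.05 (-0.25 to 0.34) in cluster 6, where the sum was at 0.26. Compared within clusters, the list's median was 0.26 and none of its genes but H2-Oa (0.67) passed 1.5-fold. Leaving MHC class II genes out of the clustering gave a median of 0.32 within clusters. Without clusters 3 and 12 the median over the remaining barcodes was 0.43.

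**Figure D3:**
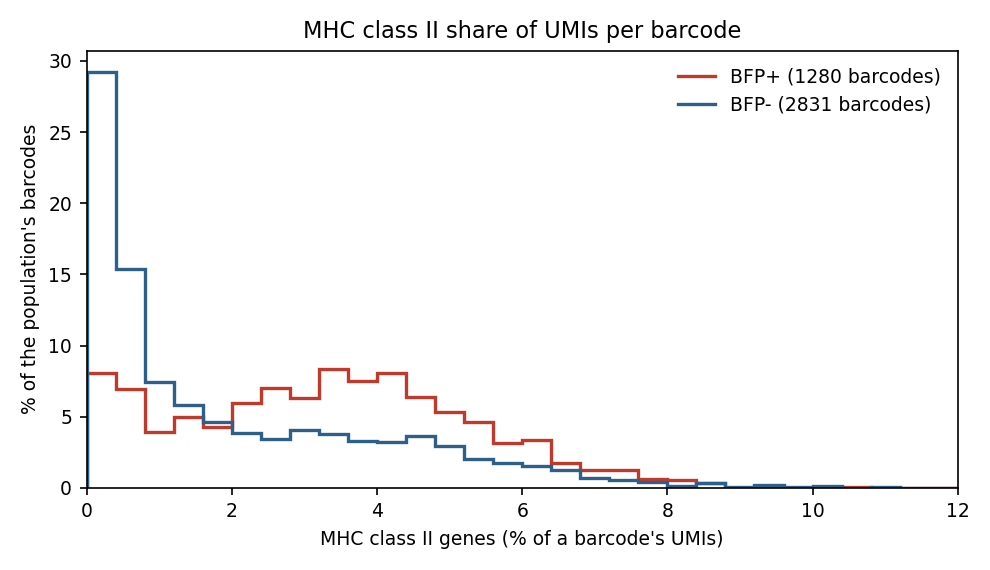
Share of a barcode's UMIs that came from the MHC class II list (horizontal, %), as the percentage of BFP+ (red) and BFP- (blue) barcodes in each bin of 0.4% (vertical). BFP- barcodes pile up in the lowest bins and BFP+ barcodes spread around their median of 3.33%.

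**Figure D4:**
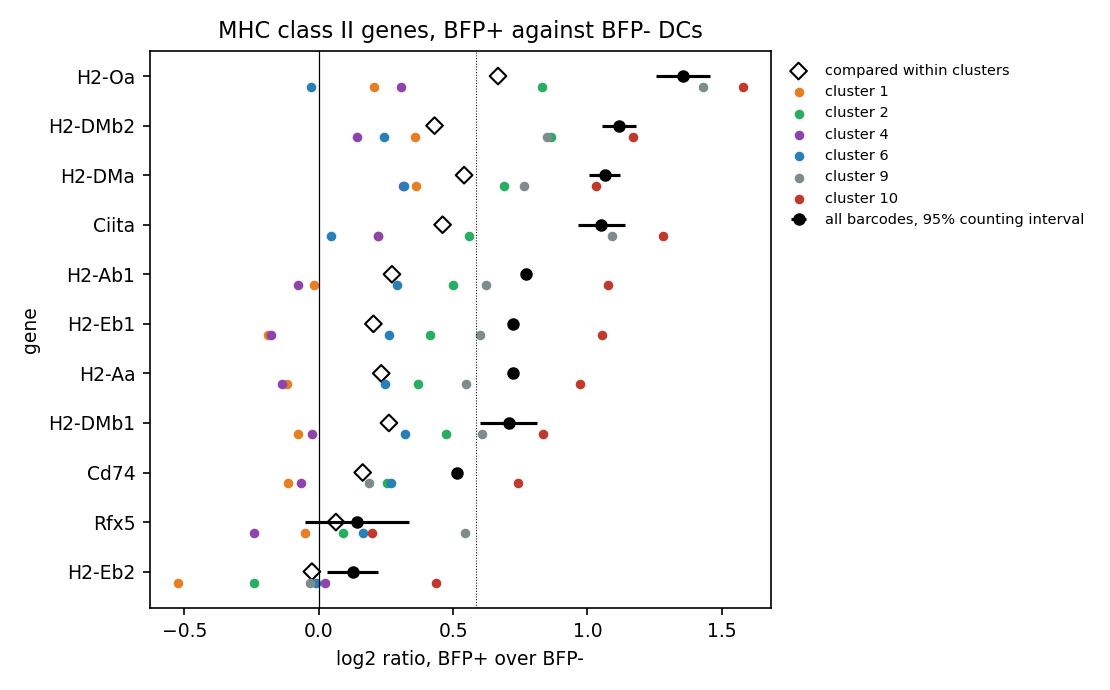
Log2 ratio of BFP+ over BFP- for the 11 tested MHC class II genes: over all barcodes with the 95% counting interval (filled circles), within clusters (diamonds) and in 6 single clusters (small points); the dotted line marks 1.5-fold. Among the single clusters, cluster 10 lies rightmost for most genes, and clusters 1 and 4 lie left of 0 for H2-Aa, H2-Ab1 and H2-Eb1.

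Among ligands of the TNF family, 3 of 4 tested genes (17 listed) were called higher in BFP+ DCs, against 1.42% of all tested genes, and 0 lower. One of them is Tnfsf4, the gene of the sorted reporter, and the median log2 ratio of 0.69 includes it. Cd70, which costimulates T cells through CD27, was at 40.9 CPM in BFP+ and 24.3 CPM in BFP- DCs (log2 ratio 0.75, 0.59 to 0.91). Its ratio was larger within clusters, at 0.96, and ran from 0.34 in cluster 2 to 1.73 in cluster 1 among the 7 clusters with a UMI in both populations, while cluster 0 held 0 UMIs in BFP+ and 6 in BFP- barcodes. Tnfsf9, the ligand of 4-1BB, was at 99.3 and 64.1 CPM (0.63, 0.53 to 0.74) and at 0.46 within clusters. Ltb, lymphotoxin beta, was at 19.8 and 22.1 CPM (-0.16, -0.37 to 0.05). The receptor of OX40L is also a transcript of these cells: Tnfrsf4 was at 180 CPM in BFP+ and 236 CPM in BFP- DCs (-0.39, -0.46 to -0.32), but at 0.03 without clusters 3 and 12. None of the 7 tested TNF family receptors was called.

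Costimulatory and checkpoint ligands differed little. Of 13 tested genes, 2 were called higher, against 1.42% of all tested genes, and 0 lower. The median was 0.21, and 0.08 within clusters. Besides Tnfsf9, the called gene was Cd200, whose product restrains myeloid cells, at 218 and 144 CPM (0.60, 0.53 to 0.66). Within clusters Cd200 was at 0.08. The B7 gene Cd80 was at 293 and 206 CPM (0.51, 0.45 to 0.56) and Pvr, a ligand of TIGIT, at 51.4 and 72.9 CPM (-0.50, -0.63 to -0.38).

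Most receptors of TSLP and related cytokines differed little between the populations, with a median of -0.04. Of 21 tested genes, 2 were called higher, against 1.42% of all tested genes, and 0 lower. Crlf2, the TSLP-binding chain, was at 23.8 CPM in BFP+ and 23.2 CPM in BFP- DCs, a log2 ratio of 0.04 whose interval runs from -0.16 to 0.23. Its partner Il7r was at 202 and 165 CPM (0.29, 0.22 to 0.36) and at 0.03 within clusters. The called genes were Il9r, the interleukin-9 receptor chain (31.5 and 17.8 CPM, 0.82), and Il2ra, the interleukin-2 receptor alpha chain (113 and 69.6 CPM, 0.70). They were at 0.22 and 0.08 within clusters. Stat4, a transducer of interleukin-12 signals, was the 1 called gene of 20 tested JAK-STAT and feedback genes, at 293 and 193 CPM (0.60, 0.54 to 0.66). It was at 0.25 within clusters and 0.43 without clusters 3 and 12, both under 1.5-fold. Vdr, the receptor that MC903 binds, was at 22.6 and 16.1 CPM (0.49, 0.28 to 0.70).

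Cytokines that steer T cells went both ways. Of 6 tested genes 1 was called higher and 1 lower, where 1.42% of all tested genes were higher and 1.81% lower. Il6 was at 20.2 CPM in BFP+ and 9.84 CPM in BFP- DCs (log2 ratio 1.04, 0.79 to 1.29). Within clusters its ratio was 0.62. Ebi3, a subunit of interleukin-27, was at 97.7 and 65.4 CPM (0.58, 0.48 to 0.68), and at 0.63 within clusters. Il1b, which encodes interleukin-1 beta, was at 309 and 475 CPM (-0.62, -0.67 to -0.57), and B cell-like barcodes held it at 80.3 CPM. Its difference was larger within clusters, at -0.83, and spanned -2.24 (-2.49 to -1.99) in cluster 1, -1.54 in cluster 4, -1.44 in cluster 9, -0.91 in cluster 2 and -0.10 (-0.19 to -0.01) in cluster 6. The untreated capture gave -0.90 for Il1b and 0.64 (0.10 to 1.15) for Il6.

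Of 10 tested chemokines, 4 were called lower in BFP+ DCs over all barcodes, against 1.81% of all tested genes, and 0 higher. The median was -0.42 over all barcodes and -0.03 within clusters. The sum of the list was higher in BFP+ barcodes in clusters 1, 2, 4, 7 and 9, at log2 ratios of 0.09 to 0.49, and lower in clusters 0, 6 and 10, at -0.20 to -0.13. Ccl5, an inflammatory chemokine that attracts T cells, was at 5191 and 8583 CPM (-0.73, -0.74 to -0.71) but at -0.08 within clusters and -0.16 without clusters 3 and 12. Ccl17, a CCR4 ligand, was at 374 and 665 CPM (-0.83, -0.88 to -0.79) and at -0.22 within clusters. The neutrophil-attracting Cxcl1 was at 38.4 and 77.5 CPM (-1.01, -1.15 to -0.88) and at -0.74 within clusters, but went the other way in cluster 1, at 1.37 (0.78 to 2.02). Ccl4 was at 13.7 and 22.7 CPM (-0.73), with 41.8% of its UMIs in 1 barcode, and at 0.64 with each barcode weighted equally. Cxcl10, a CXCR3 ligand, was at 83.4 and 59.2 CPM (0.49, 0.39 to 0.60), and Ccl22, a further CCR4 ligand, at 2953 and 2954 CPM.

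**Figure D5:**
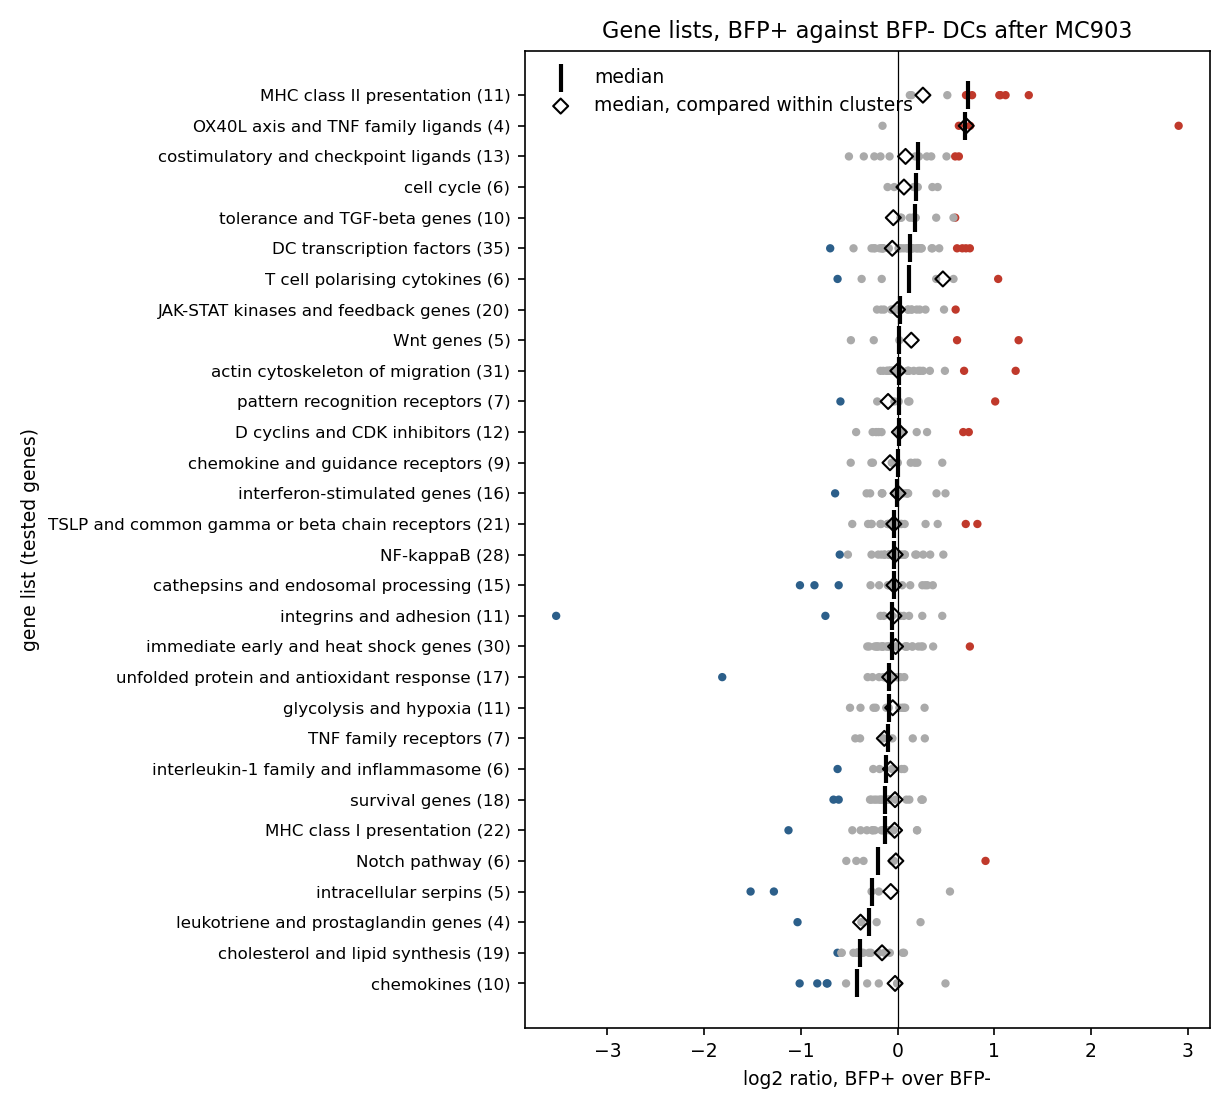
Log2 ratio of BFP+ over BFP- for each tested gene (points) of the gene lists with at least 4 tested genes, with the list's median over all barcodes (bars) and within clusters (diamonds); red and blue points are at least 1.5-fold higher and lower. MHC class II presentation and TNF ligands have the highest medians and chemokines the lowest, and the chemokine median moves to -0.03 within clusters.

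Most of the named genes with the highest ratios lie outside these lists. Myl7, an atrial myosin light chain, was at 34.5 CPM in BFP+ and 7.19 CPM in BFP- DCs (log2 ratio 2.26, 2.02 to 2.51). Its UMIs lay in 6.95% of BFP+ and 1.77% of BFP- barcodes. Nrg1, which encodes the ErbB ligand neuregulin, was at 57.3 and 21.7 CPM (1.40, 1.25 to 1.56), and its ratio was above 0 in all 8 clusters, from 0.03 in cluster 0 to 1.45 in cluster 10. Rac2, a GTPase of the actin skeleton, was at 85.4 and 36.6 CPM (1.22, 1.10 to 1.34) and at 0.74 within clusters. The untreated capture gave 0.14 (-0.13 to 0.40) for Rac2, and whether the captures differ was not tested. Nrgn (1.43), Plxna4, a semaphorin receptor (1.27), Atp1b1, a sodium pump subunit (1.26), the secreted Wnt modulator Dkk2 (1.25) and the glutamate receptor gene Gria3 (1.18) completed the 12 highest named genes with H2-Oa, H2-DMb2, H2-DMa and Ciita. Outside the naming rule, the gene model 1500009L16Rik was at 46.8 and 13.4 CPM (1.80, 1.62 to 1.99) and at 0.88 within clusters. Within clusters the ratios of Nrgn and Gria3 were 0.59 and 0.61, and those of Dkk2 and Atp1b1 were 0.40 and 0.29. Ly86, the partner of the receptor RP105, was at 334 and 166 CPM (1.01, 0.95 to 1.07) and at 0.58 within clusters.

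Genes were also ranked by their smallest ratio over the 5 clusters that held at least 100 barcodes of each population, and the first 6 each way are named here. Higher in each of those clusters were Nrg1, Tnip3, Ccnd2, Aim2, Cd70 and St3gal3. Tnip3, an inhibitor of NF-kappaB signalling, was at 57.0 and 41.1 CPM (0.47, 0.34 to 0.61) and at 0.74 within clusters. Ccnd2, cyclin D2, was at 241 and 145 CPM (0.74, 0.67 to 0.80), and its ratio over those clusters ran from 0.43 in cluster 6 to 1.95 in cluster 10. The DNA sensor gene Aim2 was at 21.3 and 18.6 CPM (0.20, -0.01 to 0.41) over all barcodes. Lower in each of them were Gclc, Ramp1, Cxcl1, Ctdspl2, Pdxk and Orai2. Ramp1, a subunit of the CGRP receptor, was at 25.3 and 40.3 CPM (-0.67, -0.85 to -0.50) and at -0.73 within clusters. Gclc, the catalytic subunit of glutathione synthesis, was at 17.2 and 60.3 CPM (-1.81, -2.02 to -1.62) and at -0.73 within clusters. Of the genes called within clusters, Lyz1 (-1.64, with 26.9% of its UMIs in 1 barcode) and Mki67 (-0.97) among the lower and Bcl11a (0.62) and Slc27a3 (0.78) among the higher are named outside the naming rule, after their values were seen. Slc27a3 was at -0.06 over all barcodes. Mki67, which marks dividing cells, was at 8.11 and 19.6 CPM over all barcodes (-1.27, -1.58 to -0.98), under the 20 CPM for testing there. The other genes of the proliferating marker list did not follow it over all barcodes. Top2a was at -0.02, Cdk1 at -0.07, Ccnb1 at -0.24 and Birc5 at -0.41, each with an interval that included 0. Tyms was at 0.41 (0.23 to 0.60). None of the 6 tested cell cycle genes was called over all barcodes.

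The genes lowest in BFP+ DCs were of 2 kinds. Of the 13 clusters, 2 were named from the marker lists and the others stayed unnamed. Only the list with the most markers met was tried for each cluster. Cluster 5 met 10 monocyte and macrophage markers, none of them among its leading genes. It also met 7 cDC2 markers, with Cd209a, Cd209d and Ccr2 among its leading genes. Its leading genes further held the NK marker Gzma (152 against 0.10 CPM elsewhere) and the plasmacytoid DC marker Ly6d (166 against 1.31 CPM). Cluster 5, with 63 barcodes, thus held markers of several cell types. Most of the first kind are among the leading genes of clusters 3 and 12. Cluster 3 is Langerhans-like by Epcam (100 CPM against 5.75 elsewhere), Cldn1 and Mfge8, and also had Cd207, the gene of langerin, at 14.7 against 0.77 CPM. Cluster 12 is cDC1-like by Irf8 (748 against 295 CPM), Laptm4b and Apol10b. It held Xcr1 and Clec9a, defining genes of less mature cDC1, at low levels of 5.45 and 4.74 CPM, against 0.82 and 0.16 CPM elsewhere. These 2 genes were not particular to cluster 12, as cluster 5 held them at 33.1 and 4.72 CPM. Irf8 was also raised in cluster 3 (682 against 305 CPM) and Mfge8 in cluster 12 (236 against 69.6 CPM), so neither tells these 2 clusters apart. Epcam was at 1.83 CPM in BFP+ and 21.1 CPM in BFP- DCs (log2 ratio -3.53, -4.17 to -2.95). Tcaf2 was at 2.63 and 46.9 CPM (-4.16, -4.68 to -3.68). Asprv1, a skin protease, was at 10.6 and 63.6 CPM (-2.59, -2.84 to -2.34). Without clusters 3 and 12 these ratios were -2.02, -1.66 and -0.91. Xlr, an X-linked lymphocyte-regulated gene, was at 5.19 and 28.8 CPM (-2.47) and at -1.49 without them. The ratios of Smagp, Zmynd15 and Laptm4b were at -2.35, -1.60 and -1.47 over all barcodes, and at -0.08, -0.26 and -0.24 without those clusters. Apol10b was at -2.04 and Dnase1l3, a nuclease of DCs, at -1.61, and at -0.83 and -0.68 without them. Apol7c, known for its part in cross-presentation by DCs, was at 399 and 1430 CPM (-1.84, -1.88 to -1.80) and at -1.09 without them.

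The second kind were salivary gland genes with most of their UMIs in 1 barcode. Bpifa2, a secreted salivary protein, was at 197 CPM in BFP+ and 2472 CPM in BFP- DCs (log2 ratio -3.65), but 85.8% of its UMIs lay in 1 BFP- barcode of 162867 UMIs. Smr3a, Pip, Dnase1, Chia1, Amy1, Cst10 and Car6 had between 71.5 and 85.3% of theirs in 1 barcode. Without that barcode Bpifa2 was at -0.46 (-0.52 to -0.39) and Amy1, the salivary amylase, at -0.09 (-0.23 to 0.05). Pip (-0.76, -1.02 to -0.51) and Car6 (-0.66) were still over 1.5-fold lower without it, and Smr3a, Dnase1, Cst10 and Chia1 were at -0.53, -0.47, -0.32 and -0.10. Cluster 5 is led by genes of several cell types and cluster 8 by salivary genes. Without clusters 5 and 8, Bpifa2 was at -0.06, Pip at -0.15 and Car6 at -0.22. Bpifa2 was also at 190 CPM in cluster 3 and 141 CPM in cluster 12, with a UMI in 29.0% of BFP+ and 27.1% of BFP- barcodes. Retnla, the highest ratio of any tested gene (5.54), had 94.4% of its UMIs in 1 BFP+ barcode.

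Other genes lower in BFP+ DCs belonged to several lists. Serpinb1a, an inhibitor of neutrophil proteases, was at 54.8 and 157 CPM (-1.52, -1.63 to -1.41) and at -0.88 within clusters. Ltc4s, the enzyme of leukotriene C4 synthesis, was at 60.8 and 125 CPM (-1.04, -1.15 to -0.93) and at -0.67 within clusters. Among 15 tested cathepsin and endosomal genes, 0 were higher and 3 lower, against 1.81% of all tested genes. The 3 were Cst3 (5422 and 8273 CPM, -0.61), Cd9 (-1.01) and Cd81 (-0.86), whose ratios within clusters were -0.01, -0.30 and -0.32. Most MHC class I genes differed little, with a median of -0.13. Of 22 tested genes, 0 were called higher and 1 lower, against 1.42% and 1.81% of all tested genes. The lower one was the class I-like H2-M2, at 411 and 900 CPM (-1.13), but at -0.53 without clusters 3 and 12, and B2m, the light chain of class I, was at 4494 and 4920 CPM (-0.13, -0.14 to -0.12). Cholesterol and lipid synthesis genes leaned to BFP- DCs, with 17 of 19 tested ratios below 0, a median of -0.39 and 1 called, Sqle (25.2 and 38.8 CPM, -0.62), which was at -0.18 without clusters 3 and 12. Within clusters that median was -0.16, and the log2 ratio of the summed UMIs ran from -0.68 (-0.76 to -0.59) in cluster 10 to 0.14 (0.02 to 0.26) in cluster 0.

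Transcription factors of DCs gave 4 genes called higher and 1 lower among 35 tested, with a median of 0.13. Over all tested genes 1.42% were higher and 1.81% lower, and the counts of the other lists in this paragraph stand beside the same shares. Runx2 (92.5 and 56.7 CPM, 0.71), Tcf4, the E protein of plasmacytoid DCs (239 and 150 CPM, 0.67), Tcf7 (145 and 94.5 CPM, 0.61) and the immediate early gene Nr4a1 (38.9 and 23.2 CPM, 0.75) were higher, and their ratios within clusters were 0.28, 0.26, 0.23 and 0.33. Irf8, needed by cDC1, was at 240 and 390 CPM (-0.70, -0.75 to -0.64) and at -0.12 without clusters 3 and 12. Dll4, a Notch ligand, was at 47.3 and 25.2 CPM (0.91, 0.75 to 1.06) and at 0.27 within clusters. Most actin cytoskeleton genes differed little, with 2 of 31 called higher (Rac2 and Tubb2b), 0 lower and a median of 0.01. In the lists of NF-kappaB genes (28 tested), interferon-stimulated genes (16), survival genes (18), immediate early and heat shock genes (30), glycolysis and hypoxia genes (11) and stress response genes (17), medians lay between -0.13 and -0.01 and at most 2 genes were called in each.

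In the remaining lists few genes were called, where 1.42% of all tested genes were higher and 1.81% lower, and with so few genes tested per list these counts are read no further. D cyclins and CDK inhibitors had 2 of 12 tested genes called higher, Ccnd2 and Cdk6, a kinase that pairs with D cyclins (81.9 and 51.2 CPM, 0.68, but 0.44 without clusters 3 and 12). Wnt genes had 2 of 5 higher (Dkk2 and Tcf7), Notch genes 1 of 6 (Dll4) and tolerance and TGF-beta genes 1 of 10 (Cd200). Pattern recognition receptors had 1 of 7 higher (Ly86) and 1 lower, Unc93b1, which carries Toll-like receptors to endosomes (18.9 and 28.5 CPM, -0.59, but -0.28 without clusters 3 and 12). Integrins and adhesion genes had 2 of 11 lower (Epcam and F11r, a junction protein), intracellular serpins 2 of 5 (Serpinb1a and Serpinb6a), and leukotriene and prostaglandin genes 1 of 4 (Ltc4s). F11r went from -0.75 over all barcodes to 0.35 without clusters 3 and 12, and Serpinb6a from -1.28 to 0.47. Interleukin-1 family genes had 1 of 6 lower (Il1b), and 0 of 9 chemokine and guidance receptors, 0 of 3 C-type lectins, 0 of 2 Fc receptor and complement genes and 0 of 3 vitamin D and retinoid genes were called.

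The summed levels of marker lists of other cell types were as follows. Summed over its 12 genes, the T cell list was at 35.4 CPM in each population, with Cd3d, Cd3e and Cd3g at 0 by the rule. The 10 B cell genes summed to 32.9 CPM in BFP+ and 27.9 CPM in BFP- DCs, with Cd79a and Cd79b at 0 by the rule. The 10 monocyte and macrophage genes summed to 155 and 123 CPM, the 7 plasmacytoid DC genes to 425 and 319 CPM, of which Tcf4 made up 239 and 150 CPM, the 8 NK and innate lymphoid genes to 7.52 and 13.2 CPM, the 6 keratinocyte genes to 4.53 and 8.57 CPM and the 6 neutrophil genes to 10.9 and 0.67 CPM, where 96.6% of S100a8 lay in 1 barcode. Among DC lineages, the 7 Langerhans genes summed to 52.4 and 148 CPM, the 12 cDC1 genes to 682 and 879 CPM and the 11 cDC2 genes to 1308 and 1334 CPM. Few genes made up most of these sums. Mfge8 gave 40.6 and 108 CPM of the Langerhans sums. Batf3 (395 and 370 CPM) and Irf8 (240 and 390 CPM) led the cDC1 sums, and Tmem176a (1025 and 1051 CPM) the cDC2 sums. The sums therefore do not measure the share of a lineage. The part of these cell types in the differences above was not tested. Genes with near-identical copies, such as Bcl2a1a and Bcl2a1b, Hspa1a and Hspa1b, or Serpinb6a and Serpinb6b, may share UMIs, and their values are uncertain.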

How the data were processed

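Droplet 3′ RNA sequencing (10x Chromium v3) with hashtag antibodies measured 2 captures, and the MC903 capture is the subject here. The authors deposited raw UMI counts for each gene and hashtag of every barcode. Per the file headers Cell Ranger 3.1.0 wrote them, and the submitters' processing notes name GRCm38 (mm10). The sources used here do not give the annotation or the strand setting of the counting; gene positions are from GENCODE vM21. The matrix has 22631 gene rows, BFP among them, and 4 hashtag rows. Barcodes were chosen as the report states. No doublet caller was run: mixed hashtags removed barcodes of both populations, and doublets within a population remain.

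Counts were summed per population and scaled to CPM. Log2 ratios carry exact 95% intervals of 2 Poisson counts (scipy 1.17.1), checked on simulated data. A gene was tested at 20 CPM in the higher population and called at 1.5-fold. Clusters came from scanpy 1.11.5 and leidenalg 0.10.2 (2000 variable genes less excluded ones, 30 components, 15 neighbours, resolution 0.8, 10000 UMIs per barcode). Excluded were Tnfsf4, BFP, the genes of the membership rule, antigen receptor genes, genes of ribosomes and mitochondria, and sex-specific genes. Haemoglobin genes and predicted genes without a symbol of their own were left out of the ranking for named genes but not of the clustering. A name needed at least 3 markers of 1 list that were at 20 CPM and 2 times their level elsewhere, with 1 among the cluster's 10 leading genes. Only the list with the most markers met was tried, so a cluster could stay unnamed although another list met the rule. The ratio within clusters is a Mantel-Haenszel ratio over clusters with at least 30 barcodes of each population.

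Named genes were Tnfsf4 and BFP, the 12 largest ratios each way among genes with a symbol of their own seen in at least 2% of the higher population's barcodes, the 6 each way with the largest smallest ratio over clusters with at least 100 of each, and of each of 33 lists the 4 largest ratios and the most abundant gene, with Crlf2, Il7r and Tnfrsf4. The next lowest genes without over 10% of UMIs in 1 barcode were added after seeing the values. Members, lists and markers were chosen with earlier results of these data known. Alternatives covered hashtag, depth and gene thresholds, TMM scaling (edgeR 4.0.16), equal weights and thinning. Leaving out clusters 3 and 12, clusters 5 and 8 or the barcode with the most UMIs, and keeping barcodes with Cd3 or Cd79 UMIs, were chosen after seeing the data.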

Additional observations from a re-analysis of the deposited data

Results flagged for a closer look

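Ccl17 and Nr4a1 were called after MC903 and had the opposite direction in the untreated capture under the same rule (385 BFP+ and 3470 BFP- barcodes, medians of 4685 and 2631.5 UMIs). For Ccl17 the log2 ratio was -0.83 after MC903 and 0.33 (0.22 to 0.43) in the untreated capture, where it was at 398 and 318 CPM. For Nr4a1 it was 0.75 after MC903 and -0.31 (-0.60 to -0.04) in the untreated capture, where it was at 49.6 and 61.7 CPM. Each capture is 1 library, and the difference between captures was not tested.

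Barcodes outside both populations also held the reporter above the level of BFP- DCs (Tnfsf4 at most 5.27 CPM and BFP at most 11.6 CPM by their intervals). In the 96 barcodes with mixed hashtags, which had a median of 15058 UMIs, Tnfsf4 was at 11.9 CPM (7.05 to 18.8) and BFP at 60.8 CPM (49.0 to 74.6). In the 354 barcodes with a Cd3 or Cd79 UMI that carried Hashtag3, Tnfsf4 was at 23.6 CPM (18.7 to 29.5) and BFP at 63.9 CPM (55.5 to 73.1). In the 772 such barcodes with Hashtag4 they were at 4.91 and 7.36 CPM. BFP+ DCs held them at 33.2 and 109 CPM. Mixed barcodes and those with Hashtag3 carry the tag of cells sorted as BFP+. Their levels therefore check the sort and are not results about the cells.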

How the results depend on the processing

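Over 14 alternatives the log2 ratio of Tnfsf4 ran from 2.54 to 2.93 and that of BFP from 3.04 to 3.52; only without clusters 3 and 12, an alternative chosen after seeing the data, did they leave the main interval, at 2.54 and 3.04. The counts of higher and lower genes were 113 and 140 with barcodes thinned to 2000 UMIs, 34 and 49 at 50 CPM, 700 and 1179 with no CPM filter and at least 10 UMIs, 19 and 34 at 2-fold, and 38 and 39 without clusters 3 and 12; under the other alternatives they stayed within 1.5 times. Within clusters, 29 genes were lower at resolution 0.4. Without clusters 3 and 12 the sign of F11r turned to 0.35, of Serpinb6a to 0.47, and of the list medians of TNF family receptors to 0.0201, DC transcription factors to -0.021 and Fc receptors and complement to -0.0171, which thinning turned to -0.0434. The medians of chemokine and guidance receptors (0.0022 over all barcodes, -0.1243 without those clusters) and pattern recognition receptors (0.0111 and -0.0472) also changed sign, as did other medians within 0.06 of 0 under single alternatives. Ccl4 was at 0.64 with equal weights and 0.61 after thinning. TMM moved every ratio by 0.02. The cause of these shifts was not tested. No paired analysis was possible because each population is 1 pool. At this depth a gene under 20 CPM was not tested, and the intervals do not cover differences between mice or between cells.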

Other observations

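Genes next to Ciita on chromosome 16 were also higher in BFP+ DCs, which was seen after their values were known and lies outside the naming rule. Nubp1 (10411948 to 10424428, plus strand), a cytosolic iron-sulphur cluster factor, was at 145 CPM in BFP+ and 89.6 CPM in BFP- DCs, a log2 ratio of 0.70 (0.61 to 0.78). Dexi (10502531 to 10543054, minus strand), which overlaps Ciita on the other strand, was at 64.0 and 39.6 CPM (0.69, 0.56 to 0.82). From 500 kb before to 700 kb after Ciita, 10 of 23 protein-coding genes were tested, and the other 7 lay under 1.5-fold, from Snn at -0.35 to Socs1 at 0.29. Within clusters Nubp1 was at 0.33, Dexi at 0.15 and Ciita at 0.46. No source used here says whether the counting told Dexi and Ciita apart by strand.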
